A study of Mus musculus with 8 samples.

Results

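Hepatocytes, the parenchymal cells of the liver, share the organ with Kupffer cells, the macrophages resident in its sinusoids. The level of hepatocyte RNA was followed here in bulk RNA-seq libraries made from isolated mouse Kupffer cells, through 44 genes that hepatocytes are known to express, of 32903 genes in the deposited data. The genes were taken by name from a given list. They comprise 27 genes for proteins secreted into plasma and 17 genes for enzymes and a fatty acid binding protein that stay inside the cell. All 8 libraries came from wild-type mice. The 3 CCl4 libraries came from mice dosed with carbon tetrachloride in corn oil, 0.75 mL/kg, 3 times a week over 8 weeks. Carbon tetrachloride is a solvent that hepatocytes convert to a toxic radical, and repeated doses scar the liver. The 5 naive libraries came from mice that received no treatment, and no vehicle is named for them, so carbon tetrachloride and corn oil with repeated dosing cannot be told apart. The CCl4 libraries are numbered 1, 2-4 and 3, and it is unclear from the labels if 2-4 was a pool. The labels give neither strain, sex and age nor the way the cells were isolated, and they do not tie each library to its own animal. A p-value here is therefore a statement on the spread among these libraries, which may be partly technical.

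Values are TPM, the abundance of a transcript per unit of its length as a share of the library's total, summed over the RefSeq transcripts of each gene. Because TPM are shares, read depth cannot be recovered from them and is unknown. The libraries carried the markers of their labelled cell type unequally. The summed level of 12 Kupffer cell markers lay between 352.4 and 465.6 TPM in the CCl4 libraries, against 3452 to 6560 TPM in the naive libraries. Markers of liver sinusoidal endothelium, the cells that line the sinusoids, summed to 638.3 to 790.8 TPM in the CCl4 libraries, against 6294 to 12127 TPM in the naive libraries. All 12 genes of each list were lower in the CCl4 libraries. Over all genes tested, 22.5% were lower and 15.3% higher by the fit described below. Of 6 monocyte markers tested, 4 were higher, and the list summed to 672.6 to 1002 TPM in the CCl4 libraries, against 113.9 to 230.1 TPM in the naive libraries. The T and NK cell list summed to 50.8 to 192.3 TPM in the CCl4 libraries, against 143.9 to 189.1 TPM in the naive libraries, with 3 of 7 genes lower. Stellate cell and fibroblast markers summed to 112.7 to 121.0 TPM in the CCl4 libraries, against 39.1 to 94.5 TPM in the naive libraries, with 3 of 9 genes higher and 1 lower. Cholangiocyte, neutrophil and B cell lists had at most 1 gene called in either direction. Erythroid markers summed to 50.7 to 92.5 TPM in the CCl4 libraries, against 3576 to 6752 TPM in naive libraries 1 to 4, and naive library 5 stood apart from its group with 224.9 TPM. The part of these differences in the results below was not tested.

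Hepatocytes synthesise most plasma proteins, detoxify ammonia through the urea cycle, release glucose during fasting and oxidise foreign compounds with cytochromes P450. Their genes are driven by a small group of transcription factors, among them HNF1, HNF4 and C/EBP. Several of the metabolic genes are zoned along the liver lobule: urea cycle genes are highest near the portal vein, whereas Cyp2e1, the cytochrome P450 that activates carbon tetrachloride, is highest around the central vein. Haptoglobin and arginase 1 are also made by myeloid cells.

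RefSeq promoter windows on GRCm38.p6, of 300 bases that run from 250 before to 50 after the start of the gene, were found for 34 of the 44 genes. Alb, Cyp2e1 and Cyp3a11 are shown because Alb serves as the yardstick for the other genes below, Cyp2e1 acts on the toxin itself, and Cyp3a11 was the only one of the tested genes with a log2 fold change above 0. The sequences run 5′ to 3′ along the gene. Capitals mark the HNF1 motif GTTAATNAT, the HNF4 motif CAAAGTCCA and the TATA motif TATAAA, which were searched on both strands and do not overlap in these windows. The windows are chr5:90460620-90460919 on the plus strand for Alb, chr7:140763569-140763868 on the plus strand for Cyp2e1 and chr5:145879805-145880104 on the minus strand for Cyp3a11.
Alb: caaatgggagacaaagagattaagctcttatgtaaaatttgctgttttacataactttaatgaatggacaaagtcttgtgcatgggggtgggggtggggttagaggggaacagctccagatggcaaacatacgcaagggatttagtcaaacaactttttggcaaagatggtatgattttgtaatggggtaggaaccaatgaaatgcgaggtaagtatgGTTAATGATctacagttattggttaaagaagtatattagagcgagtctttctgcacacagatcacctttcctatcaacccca
Cyp2e1: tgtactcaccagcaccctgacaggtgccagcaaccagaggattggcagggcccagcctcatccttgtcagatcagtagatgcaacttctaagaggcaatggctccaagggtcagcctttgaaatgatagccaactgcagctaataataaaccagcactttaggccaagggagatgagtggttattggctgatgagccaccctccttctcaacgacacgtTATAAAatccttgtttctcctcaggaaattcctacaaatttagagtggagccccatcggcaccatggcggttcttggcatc
Cyp3a11: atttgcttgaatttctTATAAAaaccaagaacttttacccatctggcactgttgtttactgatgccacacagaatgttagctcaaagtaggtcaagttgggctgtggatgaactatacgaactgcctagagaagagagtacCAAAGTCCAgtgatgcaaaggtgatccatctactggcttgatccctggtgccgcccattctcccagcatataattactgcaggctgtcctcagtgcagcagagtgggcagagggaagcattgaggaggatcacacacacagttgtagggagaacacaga
The HNF1 motif of Alb begins 32 bases before the start of the gene, and the TATA motif of Cyp2e1 begins 31 bases before it. In Cyp3a11 the HNF4 motif begins 109 bases before the start and a TATA motif 234 bases before it. The HNF1 motif was present in 4 of the 34 genes, Alb, Fga, G6pc and Gc, which is 11.8%, against 0.801% of 32851 promoters of the same length. The HNF4 motif was present in Cyp3a11 alone of the 34 genes, 2.94%, against 0.475% of all promoters. The C/EBP motif TTGCGCAA was present in 0 of the 34 and in 0.183% of all promoters. TATAAA was present in 11 of the 34, 32.4%, against 13.6% of all promoters. These matches describe letters in the windows and not bound sites.

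Hepatocyte RNA was lower in the CCl4 preparations, and lower genes were found in every role of the gene set, from plasma carriers to cytochromes P450. Of the 43 genes tested with limma on log2(TPM + 1), 37 were lower in the CCl4 libraries at an adjusted p under 0.05, which is 86.0%, where 22.5% of all 15629 genes tested were lower. None of the 43 was higher by limma, and 0 were higher at an unadjusted p under 0.05, where 15.3% of all genes were higher at an adjusted p under 0.05. The median log2 fold change of the 43 genes was -1.80, against -0.06 for all genes tested. Without CCl4 library 3 the count of lower genes was 23 and Cyp3a11 was called higher. Without any other single library between 28 and 39 of the 43 were lower. Quantile normalization of the libraries moved the median of all genes to 0.11 and that of the 43 genes to -1.64, with 4011 of all genes higher and 3086 lower, against 2393 higher and 3513 lower in TPM as deposited. The 6 genes that were not called were Alb, Ttr, Trf, Ass1, Cyp3a11 and Cyp2c29. Cyp7a1, the rate-limiting enzyme of bile acid synthesis, was at most 0.749 TPM in any library and was not tested. The filter asked for at least 1 TPM in at least 3 libraries, and 4 of the 43 genes, Saa1, Saa2, Cyp1a2 and Cyp2c29, had a CCl4 library under 1 TPM. In bulk samples, fewer hepatocytes or less free hepatocyte RNA in a preparation and less RNA per hepatocyte cannot be told apart.

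Summed over the 44 genes, the level was 2201.5, 981.1 and 792.7 TPM in CCl4 libraries 1, 2-4 and 3, against 3532, 4485, 3989, 2932 and 2180 TPM in naive libraries 1 to 5. CCl4 library 1 was thus level with naive library 5, and the other CCl4 libraries lay below every naive library. The mean was 1325 ± 765 TPM in CCl4 (SD, n = 3) and 3423 ± 901 TPM in naive libraries (SD, n = 5), a ratio of 0.387. The log2 of this ratio, -1.37, was -1.95 without CCl4 library 1 and -1.49 without naive library 5. As a share of the TPM of protein-coding genes, the sum amounted to 0.393, 0.196 and 0.167% in the CCl4 libraries, against 0.748, 0.801, 0.770, 0.643 and 0.479% in the naive libraries, with no overlap. Alb alone made up 14.2 to 24.4% of the summed level in the CCl4 libraries and 12.2 to 16.7% in the naive libraries. Every CCl4 library was below every naive library for 21 of the 43 genes, where this held for 20.6% of all genes tested. Without naive library 5 it held for 34 of the 43 and for 28.3% of all genes tested.

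**Figure D1:**
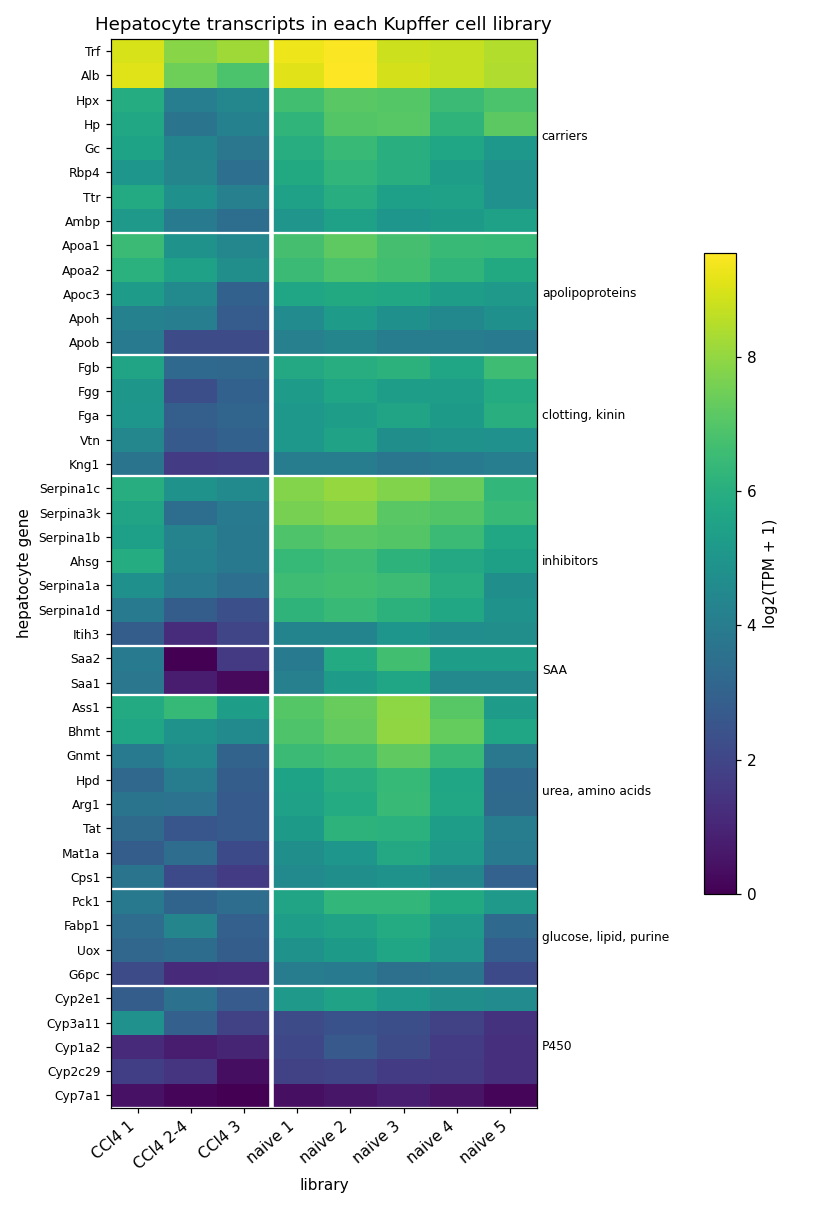
TPM of each of the 44 hepatocyte genes (rows, grouped by role) in the 3 CCl4 libraries and the 5 naive libraries (columns), as colour from 0 (dark) to high log2(TPM + 1) (light). CCl4 libraries 2-4 and 3 are darker than the naive libraries in most rows, and naive library 5 is darker than the other naive libraries in the rows of metabolic genes.

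Carrier and binding proteins of plasma held the most abundant transcripts. Of 8 genes, 5 were lower in the CCl4 libraries and the median log2 fold change was -1.23. Alb, which codes for albumin, the main protein of plasma (chromosome 5, 90460870 to 90476602), had 536.9, 171.6 and 112.8 TPM in CCl4 libraries 1, 2-4 and 3, against 557.1, 749.8, 488.3, 413.8 and 335.8 TPM in naive libraries 1 to 5. CCl4 library 1 lay within the naive range while the other CCl4 libraries were below it, and the difference was not called (log2 fold change -1.16 with an SE of 0.43, limma adjusted p = 0.0561). Without CCl4 library 1 the log2 fold change of Alb was -1.81 with an adjusted p of 0.00109, and without naive library 5 it was -1.30 with an adjusted p of 0.0361. Trf, the iron carrier transferrin, had 497.0, 228.2 and 289.5 TPM in the CCl4 libraries, against 632.4, 726.1, 454.8, 415.8 and 351.6 TPM in the naive libraries. The groups overlapped and the difference was not called (log2 fold change -0.63 with an SE of 0.29, limma adjusted p = 0.112). Without CCl4 library 1 it was -0.95 with an adjusted p of 0.0238. Ttr, the thyroxine carrier transthyretin, was not called with all 8 libraries (log2 fold change -0.48 with an SE of 0.34, limma adjusted p = 0.303), and without CCl4 library 1 it was -0.94 with an adjusted p of 0.0274.

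Hp and Hpx, which code for haptoglobin and hemopexin, the scavengers of free haemoglobin and heme, were lower by larger amounts. Hp had 50.9, 11.8 and 17.2 TPM in the CCl4 libraries, against 74.8, 127.2, 132.3, 73.9 and 141.1 TPM in the naive libraries. Its groups did not overlap (log2 fold change -2.21 with an SE of 0.41, limma adjusted p = 0.0015), and without CCl4 library 1 the log2 fold change was -2.80. Hpx had 59.6, 16.1 and 20.7 TPM in the CCl4 libraries, against 99.6, 137.2, 128.8, 89.4 and 113.5 TPM in the naive libraries, again with no overlap (log2 fold change -2.0 with an SE of 0.35, limma adjusted p = 0.000998). The remaining carriers were Rbp4 for retinol, Gc for vitamin D and Ambp, the precursor of alpha-1-microglobulin. Their log2 fold changes were -1.35, -1.29 and -1.07, and all 3 calls were lost without CCl4 library 3, with adjusted p of 0.0807, 0.113 and 0.105. Without CCl4 library 2-4, Gc and Ambp also lost theirs, with adjusted p of 0.0774 and 0.0779.

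All 5 genes named as apolipoproteins, most of which code for protein parts of lipoproteins, were lower in the CCl4 libraries, with a median log2 fold change of -1.28. Apoa1, the main protein of high-density lipoprotein, had 90.7, 28.4 and 20.2 TPM in the CCl4 libraries, against 106.8, 146.2, 104.2, 86.6 and 84.5 TPM in the naive libraries. CCl4 library 1 lay within the naive range (log2 fold change -1.44 with an SE of 0.39, limma adjusted p = 0.0145). Leaving out that library gave -2.07, while leaving out CCl4 library 2-4 or 3 raised the adjusted p to 0.0637 or 0.0801. The other apolipoprotein changes were -1.35 for Apob, the structural protein of very-low-density lipoprotein, -1.28 for Apoc3, -1.09 for Apoh and -0.98 for Apoa2. Apob lost its call without CCl4 library 2-4 or 3 (adjusted p 0.0508 and 0.0598). Apoc3 lost its call without CCl4 library 3 (-0.64, adjusted p 0.0786) and without naive library 1, 2 or 3, and Apoa2 without any of CCl4 libraries 2-4 and 3 and naive libraries 1, 2 and 3, with adjusted p of 0.0512 to 0.136. Apoh kept its call under every omission of a library but was at -0.73 with an adjusted p of 0.251 when each gene was read from its most abundant transcript alone.

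Clotting and kinin proteins were lower in all 5 genes, with a median log2 fold change of -1.78, and each had every CCl4 library below every naive library. Fgb, the beta chain of fibrinogen, the precursor of fibrin, had 46.7, 8.5 and 8.05 TPM in the CCl4 libraries, against 52.7, 60.5, 70.0, 47.9 and 95.8 TPM in the naive libraries. Its highest value was that of naive library 5 (log2 fold change -2.01 with an SE of 0.48, limma adjusted p = 0.00718). The other fibrinogen chains, Fga and Fgg, had log2 fold changes of -1.78 and -2.05. Kng1, the precursor of bradykinin, and Vtn, the adhesion protein vitronectin, stood at -1.59 and -1.65. Without CCl4 library 1, which was the highest of its group for each of these genes, Fga, Fgb, Fgg and Kng1 were at -2.45, -2.80, -2.86 and -2.25.

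The 7 protease inhibitors and related secreted proteins were all lower, with a median log2 fold change of -2.31. Serpina1c and Serpina1d belong to the mouse alpha-1-antitrypsin family, which inhibits neutrophil elastase. Serpina1c had 60.8, 29.2 and 22.4 TPM in the CCl4 libraries, against 217.7, 261.9, 215.6, 162.1 and 78.3 TPM in the naive libraries (log2 fold change -2.31 with an SE of 0.40, limma adjusted p = 0.00101). Serpina1d had 14.3, 6.08 and 4.02 TPM in the CCl4 libraries, against 73.3, 86.1, 68.6, 52.7 and 28.6 TPM in the naive libraries (log2 fold change -2.85 with an SE of 0.40, limma adjusted p = 0.000232). The groups overlapped for neither gene, although naive library 5 was well below the other naive libraries in both. Serpina1a and Serpina1b were at -2.03 and -2.14. The members of this family are near-identical copies, so reads may be divided among them with error, and their sum was at -2.32 ± 0.40 (SE, limma adjusted p = 0.00101). Serpina3k, a relative of alpha-1-antichymotrypsin, had 47.3, 9.96 and 14.6 TPM in the CCl4 libraries, against 193.6, 213.6, 138.4, 125.0 and 84.6 TPM in the naive libraries. It did not overlap between groups (log2 fold change -2.84 with an SE of 0.44, limma adjusted p = 0.000505), and it was at -3.46 without CCl4 library 1. Itih3, a hyaluronan-binding protein, was at -2.59. Ahsg, the calcium-binding fetuin-A, was at -1.42, was at -2.04 without CCl4 library 1, and lost its call without CCl4 library 2-4 or 3 or naive library 2 (adjusted p 0.0926, 0.119 and 0.0512).

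Serum amyloid A proteins, made by the liver in the acute-phase response, had the largest falls among the 43 genes on the log2(TPM + 1) scale, an order that depends on the pseudocount. Saa1 had 12.8, 0.705 and 0.171 TPM in the CCl4 libraries, against 16.8, 37.0, 49.7, 21.5 and 21.4 TPM in the naive libraries (log2 fold change -3.22 with an SE of 0.68, limma adjusted p = 0.00363). Saa2 had 14.8 TPM in CCl4 library 1, was listed at 0 in CCl4 library 2-4 and had 2.10 TPM in CCl4 library 3, against 14.4, 55.5, 101.4, 38.6 and 39.1 TPM in the naive libraries. CCl4 library 1 was close to naive library 1 for both genes, and naive library 3 was the highest. The log2 fold change of Saa2 was -3.54 ± 0.79 (SE, limma adjusted p = 0.00474). With a pseudocount of 5, Saa1 was at -2.0 and Saa2 at -2.41, smaller falls than that of Serpina3k at -2.58, and with a pseudocount of 0.1 they were at -4.26 and -4.81. Single libraries moved both values too: Saa1 was at -4.31 without CCl4 library 1 and -2.53 without CCl4 library 3, and Saa2 was at -4.6 without CCl4 library 1 and -2.61 without CCl4 library 2-4. Saa1 and Saa2 are close copies, and their sum was at -3.70 ± 0.78 (SE, limma adjusted p = 0.00354).

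Genes of the urea cycle and amino acid metabolism were lower in 7 of 8 cases, with a median log2 fold change of -2.03. Bhmt, which remethylates homocysteine with betaine, had 48.4, 28.3 and 22.3 TPM in the CCl4 libraries, against 120.4, 153.8, 247.2, 156.3 and 49.0 TPM in the naive libraries (log2 fold change -2.01 with an SE of 0.44, limma adjusted p = 0.0042). Naive library 3 was the highest and naive library 5 was within 1 TPM of CCl4 library 1. Ass1, the urea cycle enzyme argininosuccinate synthetase, had 55.8, 83.9 and 40.1 TPM in the CCl4 libraries, against 131.2, 159.0, 241.8, 132.4 and 37.8 TPM in the naive libraries. Naive library 5 was below all 3 CCl4 libraries, and the difference was not called (log2 fold change -1.06 with an SE of 0.49, limma adjusted p = 0.113). Without that library it was -1.47 with an adjusted p of 0.00148. Arg1, arginase 1, which releases urea from arginine, had 11.8, 11.6 and 5.45 TPM in the CCl4 libraries, against 43.5, 57.4, 87.9, 52.2 and 8.92 TPM in the naive libraries. Naive library 5 lay inside the CCl4 range (log2 fold change -2.03 with an SE of 0.58, limma adjusted p = 0.0186), and without CCl4 library 3 the adjusted p of Arg1 was 0.0923.

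The other genes of this role were also lowest in naive library 5 among the naive libraries. Gnmt, a methyltransferase that uses up S-adenosylmethionine, had 14.4, 22.2 and 7.33 TPM in the CCl4 libraries, against 89.4, 101.2, 147.7, 88.8 and 13.1 TPM in the naive libraries (log2 fold change -2.29 with an SE of 0.65, limma adjusted p = 0.0178). Hpd, an enzyme of tyrosine breakdown, had 8.26, 15.3 and 6.02 TPM in the CCl4 libraries, against 45.5, 62.8, 83.0, 49.8 and 8.59 TPM in the naive libraries (log2 fold change -2.02 with an SE of 0.60, limma adjusted p = 0.0209). In both, naive library 5 was inside the CCl4 range and the other naive libraries were above it. Without CCl4 library 3 the adjusted p was 0.0917 for Gnmt and 0.095 for Hpd, and without CCl4 library 1 that of Hpd was 0.0576. Tat, the glucocorticoid-induced tyrosine aminotransferase, Mat1a, the liver S-adenosylmethionine synthetase, and Cps1, which starts the urea cycle, were at -2.52, -2.15 and -1.80. Cps1 was at -2.40 without CCl4 library 1 and lost its call without CCl4 library 2-4 or 3 (adjusted p 0.0591 and 0.0846).

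All 4 genes of glucose, fatty acid and purine handling were lower, with a median log2 fold change of -1.78. Pck1, the phosphoenolpyruvate carboxykinase of gluconeogenesis, had 13.6, 7.51 and 9.68 TPM in the CCl4 libraries, against 46.2, 79.7, 79.3, 54.8 and 35.2 TPM in the naive libraries. It did not overlap between groups (log2 fold change -2.38 with an SE of 0.28, limma adjusted p = 7.41e-05). G6pc, which releases free glucose, was at -1.96. Fabp1, the liver fatty acid binding protein, was at -1.47 with an adjusted p of 0.0491, close to the threshold, and Uox, urate oxidase, was at -1.60. The call of Fabp1 was lost without CCl4 library 1 or 3 or any of naive libraries 1 to 4 (adjusted p 0.0857 to 0.194). That of Uox was lost without any library other than naive library 5 (adjusted p 0.0525 to 0.109).

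The cytochromes P450 were divided: 2 of the 4 tested were lower and the median log2 fold change was -0.76. Cyp2e1 (chromosome 7, shown above by its promoter) had 5.97, 11.1 and 5.72 TPM in the CCl4 libraries, against 33.9, 44.5, 33.4, 26.1 and 23.1 TPM in the naive libraries. Its groups did not overlap (log2 fold change -1.97 with an SE of 0.25, limma adjusted p = 0.000125). Cyp1a2, another pericentral enzyme, was at -1.01, and without CCl4 library 2-4 its adjusted p was 0.0592. Cyp2c29 was not called (log2 fold change -0.50 with an SE of 0.30, limma adjusted p = 0.213). Cyp3a11, the main drug-inducible P450 of mouse liver, was the only one of the 43 genes with a log2 fold change above 0. It had 27.7, 6.71 and 2.65 TPM in the CCl4 libraries, against 3.71, 4.30, 3.95, 2.67 and 1.63 TPM in the naive libraries. CCl4 library 3 lay within the naive range, the other CCl4 libraries lay above it, and the difference was not called (log2 fold change 1.17 with an SE of 0.53, limma adjusted p = 0.109). Cyp3a11 was at 0.36 with an adjusted p of 0.457 without CCl4 library 1, and at 1.85 with an adjusted p of 0.0155 without CCl4 library 3. Genes of these families have close copies, so reads may be divided among them with error.

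**Figure D2:**
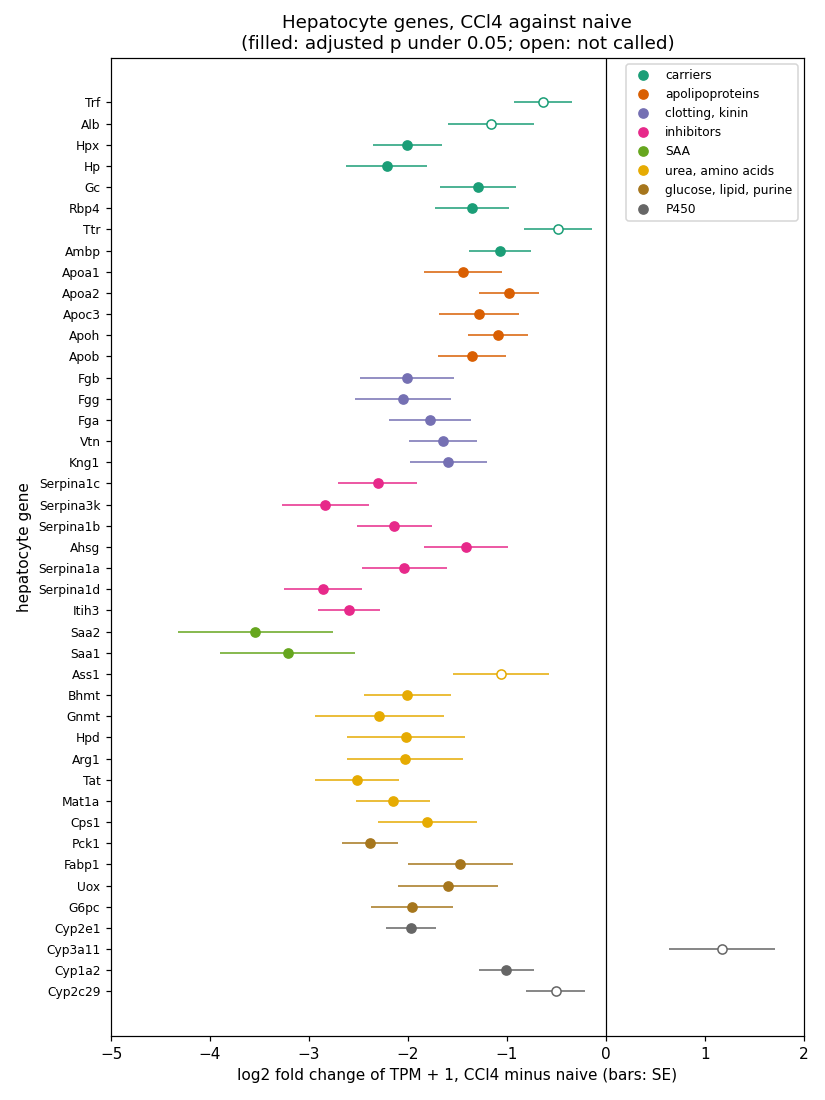
Log2 fold change of CCl4 over naive libraries on log2(TPM + 1), with standard errors from limma, for the 43 hepatocyte genes tested, grouped by role (colours). Filled points have an adjusted p under 0.05. All but Cyp3a11 lie below 0, from -3.54 for Saa2 to -0.48 for Ttr.

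The genes did not all move together between libraries of the same group. The division into secreted and intracellular products was chosen after the values were seen and was not tested. The 27 genes for secreted proteins summed to 1964, 743.9 and 667.2 TPM in CCl4 libraries 1, 2-4 and 3, against 2844, 3591, 2791, 2192 and 1944 TPM in naive libraries 1 to 5. The 17 intracellular genes summed to 238.0, 237.2 and 125.5 TPM in the CCl4 libraries, against 687.1, 894.3, 1198, 739.8 and 235.8 TPM in the naive libraries. CCl4 library 1 exceeded library 2-4 in secreted products and was level with it in intracellular ones. Naive library 5 was the lowest naive library in both sums, by a larger factor in the intracellular one. The ratio of secreted to intracellular sums was 8.25, 3.14 and 5.32 in the CCl4 libraries, against 4.14, 4.01, 2.33, 2.96 and 8.24 in the naive libraries. The ratio overlapped between groups, and the highest library of each group was almost equal.

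Gene by gene, the order of libraries made the same division only in part. CCl4 library 1 was the highest CCl4 library for 27 of 27 secreted genes and for 10 of 17 intracellular ones, where it was the highest for 41.6% of all genes tested. Its level over the mean of the other CCl4 libraries had a median of 3.24 over the secreted genes, 1.49 over the intracellular genes and 1.05 over all genes tested. The ranges overlapped, from 1.56 to 29.1 over the secreted genes and from 0.709 to 6.93 over the intracellular genes. Naive library 5 was the lowest naive library for 17 of 17 intracellular genes and for 15 of 27 secreted ones, where it was the lowest for 44.3% of all genes tested. It was the highest naive library for 6 secreted genes and for 0 intracellular ones. Its level over the mean of naive libraries 1 to 4 had a median of 0.285 over the intracellular genes, 0.727 over the secreted genes and 0.870 over all genes tested. In the same libraries, 32 other secreted and 26 other metabolic genes of hepatocytes, none of them among the 44, were ordered in a like way. CCl4 library 1 was the highest CCl4 library for 29 of the 32 secreted genes and 12 of the 26 enzymes. Naive library 5 was the lowest naive library for 13 of the 32 and 23 of the 26. The 12 of 26, 46.2%, and the 13 of 32, 40.6%, were near the shares of all genes tested. The 11 hepatocyte transporters, which are not secreted, did not follow the division. CCl4 library 1 was the highest CCl4 library for 8 of them, 72.7%, with a median of 3.05 over the mean of the others. Naive library 5 was the lowest naive library for 8, with a median of 0.661 over the mean of naive libraries 1 to 4. Erythroid markers were also low in naive library 5, and the part of that difference in the order of libraries was not tested.

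**Figure D3:**
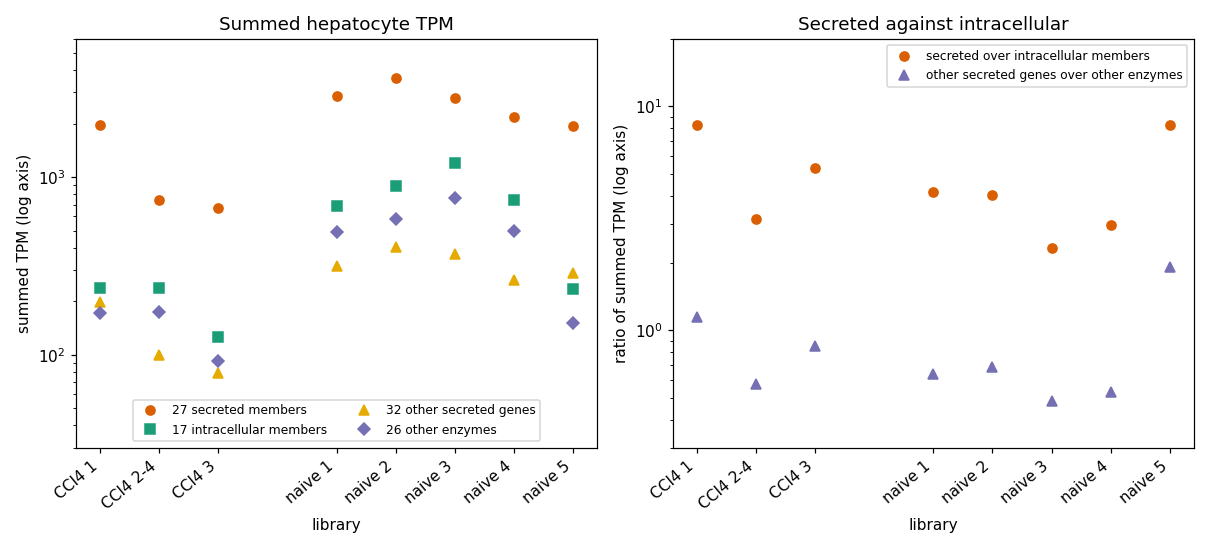
Left, summed TPM (log axis) of the 27 secreted and 17 intracellular genes and of 32 other secreted and 26 other metabolic hepatocyte genes in the 3 CCl4 and the 5 naive libraries. Right, the ratio of secreted to intracellular sums (log axis), which is 8.25 in CCl4 library 1 and 8.24 in naive library 5 and between 2.33 and 5.32 in the others for the 44 genes.

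Each gene was also set against Alb in the same library, which removes most of the effect of scaling a whole library, though not for genes near the pseudocount. On log2((gene + 1)/(Alb + 1)), every CCl4 library was below every naive library for 7 of 42 genes, where this held for 3.06% of all genes tested. With a pseudocount of 5 there were 4. The 7 were Apoa1, Ahsg, Serpina1b, Serpina1c, Serpina1d, Serpina3k and Saa1. All 7 code for secreted proteins, as do 26 of the 42 genes compared, and the other 16 are intracellular. Without CCl4 library 3 there were 15 such genes, where this held for 4.79% of all genes tested. Among those 15 were the intracellular genes Pck1, G6pc and Tat. Without naive library 5 there were 14, where it held for 3.31%. Those 14 were the 7, Serpina1a and the intracellular genes Cps1, Arg1, G6pc, Tat, Gnmt and Bhmt. The absence of intracellular genes from the 7 thus depended on single libraries. Every CCl4 library was above every naive library for 2 of the 42 genes, Ttr and Cyp3a11, where this held for 13.2% of all genes tested. These comparisons carry no test, because Alb itself is 1 of the 44 genes and differed between libraries.

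As a percentage of the Alb level, Serpina1d stood at 2.66, 3.54 and 3.56% in the CCl4 libraries, against 13.15, 11.48, 14.04, 12.73 and 8.51% in the naive libraries. Cyp3a11 stood at 5.16, 3.91 and 2.35% in the CCl4 libraries, against 0.67, 0.57, 0.81, 0.65 and 0.49% in the naive libraries. For both genes every CCl4 library lay outside the naive range, Serpina1d below it and Cyp3a11 above it. Cyp2e1 stood at 1.11, 6.48 and 5.07% in the CCl4 libraries, against 6.09, 5.94, 6.84, 6.31 and 6.89% in the naive libraries. CCl4 library 2-4 was level with the naive libraries for Cyp2e1, CCl4 library 3 was slightly below them and CCl4 library 1 was far below. Trf stood at 92.6, 133.0 and 256.6% in the CCl4 libraries, against 113.5, 96.8, 93.1, 100.5 and 104.7% in the naive libraries, so CCl4 libraries 2-4 and 3 were above the naive range and CCl4 library 1 was just below it. Gnmt stood at 2.69, 12.95 and 6.50% in the CCl4 libraries, against 16.05, 13.50, 30.25, 21.46 and 3.90% in the naive libraries. Its lowest naive value again belonged to library 5. Fgb stood at 8.70, 4.95 and 7.14% in the CCl4 libraries, against 9.46, 8.07, 14.33, 11.58 and 28.53% in the naive libraries, and its highest value again belonged to naive library 5.

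**Figure D4:**
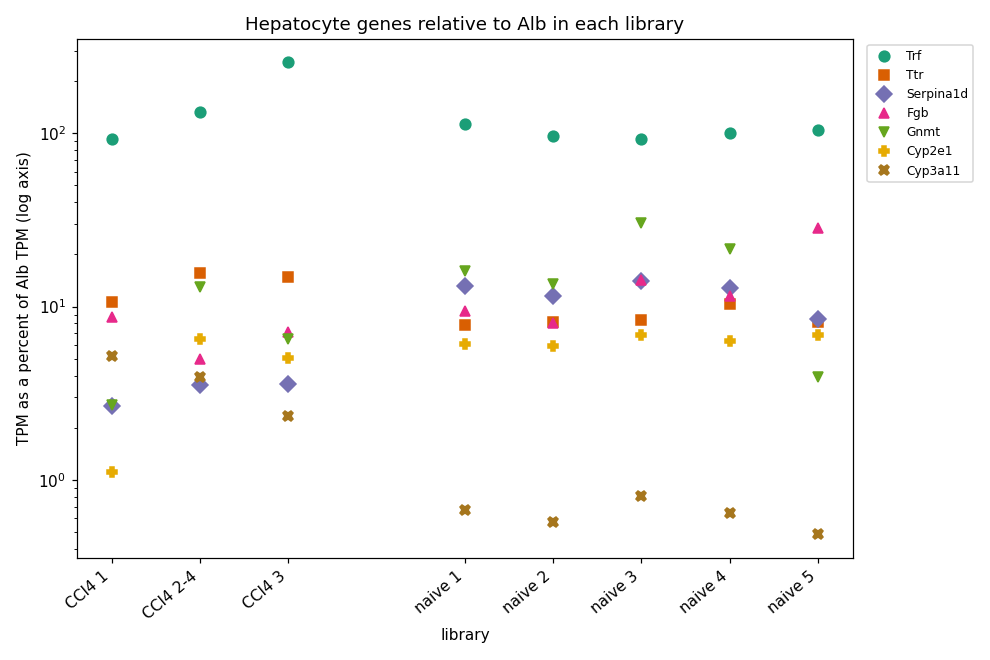
TPM of 7 genes as a percentage of the Alb TPM of the same library (log axis) in the 3 CCl4 and the 5 naive libraries; the genes were chosen after their values were seen. Serpina1d lies lower, and Ttr and Cyp3a11 lie higher, in every CCl4 library than in any naive library, while Trf, Fgb, Gnmt and Cyp2e1 overlap.

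Most hepatocyte genes beyond the 44 were lower as well, where 22.5% of all genes tested were lower and 15.3% higher. Among 32 other secreted proteins, 24 were lower and 2 higher in the CCl4 libraries, with a median log2 fold change of -1.34. Orm1 and Pzp, an acute-phase glycoprotein and a broad protease inhibitor, had the highest levels and were at -1.94 and -1.36. Without CCl4 library 2-4 or 3 the adjusted p of Pzp was 0.0506 or 0.0595. Mug1, a murinoglobulin, had the largest fall at -2.42. Apoa4 and Orm2 were the higher ones. Apoa4 had 7.72, 4.37 and 3.56 TPM in the CCl4 libraries, against 0.962, 2.27, 1.39, 1.47 and 1.66 TPM in the naive libraries (log2 fold change 1.25 with an SE of 0.24, limma adjusted p = 0.00224). Orm2, a close copy of Orm1, had 18.0, 29.3 and 16.8 TPM in the CCl4 libraries, against 9.88, 9.27, 8.40, 6.95 and 13.5 TPM in the naive libraries.

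Among 25 other metabolic enzymes tested, of 26 listed, 20 were lower and 0 higher in the limma fit (0 higher also at an unadjusted p under 0.05), with a median log2 fold change of -1.60. Without CCl4 library 3, 8 of them were lower, and without naive library 5 all 25 were. Adh1, alcohol dehydrogenase, was not called at -1.76 (adjusted p = 0.0705), and without naive library 5 it was at -2.38 (adjusted p = 0.000231). Cyp8b1, which sets the share of cholic acid among bile acids, had 0.825, 0.71 and 0.603 TPM in the CCl4 libraries, against 7.71, 6.78, 7.57, 7.04 and 5.70 TPM in the naive libraries. Its log2 fold change was -2.21 ± 0.16 (SE, limma adjusted p = 3.4e-06), and naive library 5 was only slightly below the rest. Of 11 transporters 8 were lower, and 5 without CCl4 library 2-4. Slc10a1, the bile acid importer, had a log2 fold change of -0.42 and was not called, and Slc38a3, a glutamine transporter, was at -1.64. All 7 major urinary protein genes with a matched transcript, pheromone carriers that share near-identical sequence, were lower, with a median log2 fold change of -3.46. The most abundant of them was Mup10, at -3.46, and the largest fall was that of Mup11, at -5.95, both with reads that may be divided among copies with error. Mup20, the next most abundant, had 117.2, 37.5 and 15.3 TPM in the CCl4 libraries, against 125.0, 178.7, 126.2, 120.2 and 67.9 TPM in the naive libraries. Its groups overlapped (log2 fold change -1.51, limma adjusted p = 0.0416), and it lost its call without CCl4 library 2-4 or 3 or any of naive libraries 1 to 4 (adjusted p 0.0687 to 0.195), with a value of -0.82 without CCl4 library 3.

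Transcription factors of hepatocytes were lower in 10 of the 12 tested, of 14 listed, with a median log2 fold change of -0.95. Without CCl4 library 3 the count was 5. Hnf4a, the nuclear receptor that maintains hepatocyte identity, had 3.02, 4.65 and 2.42 TPM in the CCl4 libraries, against 16.4, 21.3, 27.5, 19.9 and 9.37 TPM in the naive libraries. The groups did not overlap, naive library 5 was the lowest of its group, and the log2 fold change was -2.15 ± 0.30 (SE, limma adjusted p = 0.000252). Nr1h4, the bile acid receptor FXR, was at -1.33. CCl4 library 2-4, and not library 1, was the highest CCl4 library for 11 of the 14 transcription factors, where it was the highest for 47.2% of all genes tested.

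By place in the lobule and by response, the lists shared genes with the 44. Over all genes tested, 22.5% were lower and 15.3% higher. Of 13 periportal genes tested 8 were lower, with a median of -1.42, and 3 were lower without CCl4 library 3. Ctsc, a lysosomal protease that many immune cells make and the most abundant of the periportal list, was at -0.01 and was not called. Of 9 pericentral genes tested, of 13 listed, 4 were lower and 1 higher, with a median of -0.76. The higher one was Cyp27a1, sterol 27-hydroxylase, an enzyme that macrophages also make, with 98.1, 101.0 and 110.9 TPM in the CCl4 libraries, against 45.4, 45.4, 27.6, 32.5 and 32.2 TPM in the naive libraries. Glul, glutamine synthetase, also made by macrophages, was at -0.76. Of 17 acute-phase genes 13 were lower and 1, Orm2, higher, with a median of -1.81, and Lbp, the lipopolysaccharide binding protein, was at -2.86. Of 8 fetal and regenerating genes only Cd24a and Igf2bp3 were tested, at 0.20, not called, and -0.59, lower. Without CCl4 library 3 the adjusted p of Igf2bp3 was 0.0537.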

How the data were processed

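RNA from isolated Kupffer cells was sequenced in 3 CCl4 and 5 naive libraries, from a directional library preparation per the labels' protocols. Transcripts were quantified with kallisto 0.42.4, and GRCm38 is named as the build, per the submitters' processing notes. Per the file headers, each deposited table lists the TPM of RefSeq transcripts. Index and trimming: not given in the sources used here. Accessions without version matched 86722 of 107384 transcripts to a RefSeq gene of GRCm38.p6, and their TPM were summed to 32903 genes. The 20662 unmatched transcripts held 6.06 to 7.58% of a library's TPM, so some sums may be incomplete. No pair of libraries shared more than 1 identical TPM above 0 among the genes tested.

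The 15629 genes that reached 1 TPM in 3 or more libraries entered a limma 3.58.1 fit (R 4.3.3) of log2(TPM + 1) on group, with lmFit, trended eBayes, Benjamini-Hochberg adjustment over all of them and a threshold of 0.05. Fold changes are CCl4 minus naive on that scale, which understates changes of low genes. The fit was run on simulated data with independent noise in each gene and 200 changed genes. Those data had no library that stood apart over many genes, so the simulation says nothing on that feature of these libraries. A gene's TPM is a share of the library, so another gene's rise lowers it. The ratio to Alb and the sums were described without a test.

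The members and all gene lists were chosen with earlier results of these data known. Values in every library were given for the 8 most abundant members, the most abundant of each role, Cyp2e1, Hp, Arg1, Saa1 and Saa2, and the 4 largest rises and falls called. Gnmt, Hpd and Cyp3a11, and the genes set against Alb, were chosen after their values were seen. Of the other lists the 2 most abundant genes and the largest rise and fall called were named, except what is not reported here. The alternatives changed the pseudocount, the filter, the scaling or the variance model, weighted the libraries, added a replicate block, took each gene's most abundant transcript, summed close copies, or left out a library.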

Additional observations from a re-analysis of the deposited data

How the results depend on the processing

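The count of lower genes, 37 of 43, was 23 without CCl4 library 3, and over the omissions of a library it ranged from 23 to 39. Without any filter on low values the count was 27, all of them among the 37. With each gene's most abundant transcript alone it was 30, and Ahsg, Apoa2, Apoc3, Apoh, Fabp1, Mat1a and Uox were not called (adjusted p 0.051 to 0.471). The count of higher genes, 0, was 1 without CCl4 library 3 and ranged from 0 to 1 over the omissions. With the replicate block, which left 1 residual degree of freedom, it was also 1, Cyp3a11, with 40 lower, and 5312 of all genes were called instead of 5906. Under the block the fold change comes from libraries 1 and 3 of each group alone, and the remaining libraries do not inform it. The labels share the numbers 1 and 3 between groups and do not say what a number marks. Libraries of the same number deviated from their group means with correlations of 0.0772 and -0.0414. Libraries of different numbers were not compared in this way, so whether the numbers pair libraries is unknown. Over the omissions of a library, 4578 to 6738 genes were called. The log2 ratio of summed TPM, -1.37, ranged from -1.95 to -1.11. The 7 genes lower relative to Alb in every CCl4 library were 4 with a pseudocount of 5, and from 7 to 15 over the omissions, with 14 without naive library 5. The cause of these changes was not tested. The median log2 fold change of the 43 genes ranged from -2.17 to -1.33 over the alternatives. Of the genes not called, Alb was called lower after rescaling to protein-coding genes with or without the hepatocyte lists (adjusted p 0.0349 and 0.0341), quantile normalization (0.0234), library weights (0.0201) and the replicate block (0.0015). Ass1 was called lower with library weights and with the replicate block, Cyp2c29 with the replicate block (0.0494), and Trf after quantile normalization. The calls with the replicate block rest on libraries 1 and 3 of each group. TPM give no depth, so a level near 0, such as that of Saa2 in CCl4 library 2-4, carries no counting limit.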
